A study of Homo sapiens with 4 samples.

Results

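The 40 genes described here encode proteins of the centromere, the kinetochore, the spindle assembly checkpoint and the chromosomal passenger complex, together with Aurora A and the centriole protein CENPJ. They are chosen by name and not by a measured value. All 40 were found among the 15221 genes with values, and all 40 were tested. RNA-seq was done on 2 libraries of PANC-1, a human pancreatic ductal adenocarcinoma cell line left untransduced and labelled wild type, and on 2 libraries of PZT-2, a clone made from PANC-1 in which the 3 isoforms of the histone variant H2A.Z were knocked down. The knockdown used lentiviral shRNAs from a U6 promoter, one against H2AFZ and one against H2AFV, with puromycin selection. Both cell lines were at passages p12-p13, in DMEM with serum and without further treatment. PZT-2 is 1 clone and the controls used here went through neither transduction nor cloning. In these libraries an effect of the knockdown therefore cannot be told apart from one of the clone or of the transduction. The study also sequenced cells with a scrambled shRNA and reports that similar genes differed between them and PZT-2. Those cells are not among the libraries used here. The study calls the pair of libraries of each line biological replicates, but neither it nor the labels say whether they came from separate cultures, so p-values measure the spread between these libraries, part of which may be technical. No batch is named in the labels.

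The centromere is the chromosomal site marked by nucleosomes that hold the histone H3 variant CENP-A in place of H3. On it a constitutive inner layer of CENP proteins is built through the cell cycle, and in mitosis an outer layer of microtubule-binding proteins is added, which together form the kinetochore. Unattached kinetochores start the spindle assembly checkpoint, which holds the anaphase-promoting complex back, and Aurora B in the chromosomal passenger complex corrects faulty attachments. Many of these genes are transcribed mainly in G2 and mitosis, so that their mRNA levels in a population follow its share of dividing cells. In bulk RNA fewer cells of a kind and less RNA per cell cannot be told apart.

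The targets of the knockdown came first. H2AFZ had 6388 and 6034 normalized counts in the PANC-1 libraries and 2211 and 2258 in the PZT-2 libraries, where counts are scaled for the size and composition of each library. Its log2 fold change was -1.47 ± 0.056 (SE, adjusted p = 6.21e-05) by the quasi-likelihood test of edgeR, which gave all adjusted p-values below unless another tool is named. H2AFV had 3343 and 3452 in the PANC-1 libraries and 2589 and 2718 in the PZT-2 libraries, a log2 fold change of -0.36 ± 0.057 (SE, adjusted p = 0.00571). Each library held 12856547 to 15716986 counts. Marker lists were read for the cell type, and KRT8, KRT18 and KRT19 had mean normalized counts of 41442, 21694 and 22699 in PANC-1. The other epithelial markers were low there, with means of 128 for KRT7, 132 for CDH1 and 104 for EPCAM. The list as a whole therefore does not settle a ductal origin. The summed level of the 6 epithelial markers was 7248 to 7403 TPM, a level scaled for transcript length and library size, in PANC-1 and 3969 to 4058 TPM in PZT-2, with 4 of the 6 called lower, CDH1 among them. The fibroblast list summed to 10.7 to 11.9 TPM in PANC-1 and 3.33 to 4.19 TPM in PZT-2, the immune list to 117 to 121 and 125 to 131 TPM, nearly all of it CD68, and the endothelial list to at most 0.236 TPM in any library. COL1A2, COL3A1, DCN, LUM, PTPRC, CD3E, VWF and CDH5, which define those other cell types, have no value among the genes analysed here. The part of the change in epithelial markers in the results below was not tested.

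Of the 40 genes, 11 were lower and 4 were higher in PZT-2 at an adjusted p under 0.05, and 25 did not pass the threshold. Over all 15101 genes tested, 28.4% were called, 13.7% lower and 14.7% higher. Among the 40, 27.5% were called lower and 10.0% higher. Their median log2 fold change was -0.13, against 0.0010 over all genes, and 30 of the 40 had a negative value. The genes that fell were CENPB, CENPC, CENPI, CENPT, CENPU, CENPE, CENPF, PMF1, TTK, BIRC5 and CDCA8, and those that rose were CENPA, OIP5, CENPO and MAD2L1. CENPC rests on 1 of its transcripts and passed the filter on low counts through the PANC-1 libraries alone. Without it, 10 of 39 genes were called lower and the median was -0.12. On a scale of log2(TPM + 1) tested with limma, 6 of the 40 genes were called lower and 4 higher, beside 9.58% and 15.7% of all genes. The share of lower genes among all calls was 37.9% on that scale, against 48.2% with counts.

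**Figure D1:**
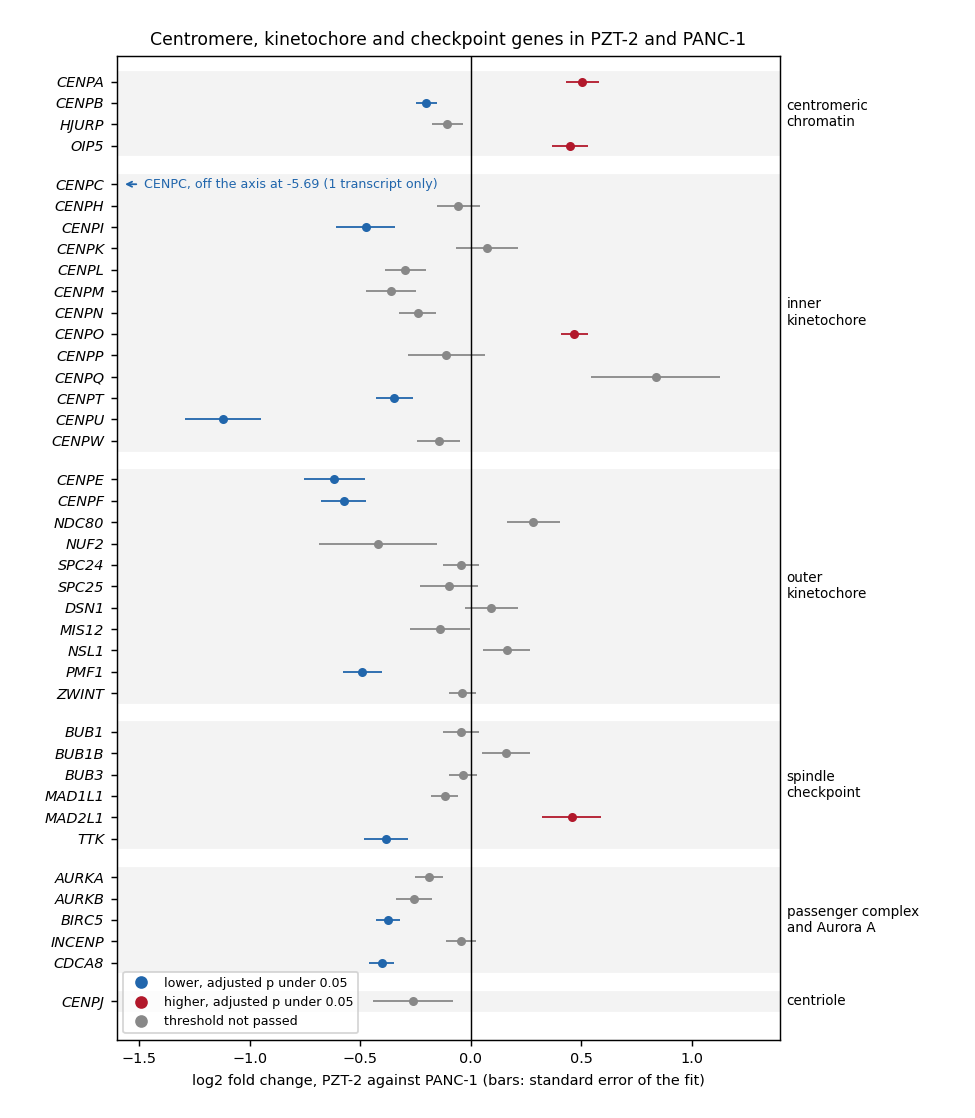
Log2 fold change of each of the 40 genes in PZT-2 against PANC-1 on the horizontal axis, with the genes in rows by group. Points are values of the edgeR fit on 2 libraries a cell line, bars are standard errors, and colour gives the call at an adjusted p of 0.05. In the centromeric group CENPA and OIP5 stand right of 0 and CENPB left of it, and all 5 genes of the passenger complex and Aurora A stand left of 0.

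The promoters of genes of this kind often carry a cell cycle genes homology region (CHR) and CCAAT boxes, which are known to be bound by MuvB complexes and by NF-Y. RefSeq promoter windows of GRCh38.p14, from 250 bases before to 50 bases after the start of the gene, were matched for 33 of the 40 genes. The CHR letters TTTGAA or TTCGAA, on either strand, were in 17 of the 33 windows (51.5%), in 16.6% of all 27305 windows and in 10.9% of the 11676 windows of genes tested here, and CCAAT, on either strand, was in 20 (60.6%), in 35.7% of all and in 36.2% of those tested. Both were in 13 of the 33 (39.4%), in 6.58% of all windows and in 4.61% of those tested. Of the 11 genes that fell, 9 had a window and 3 of these held CHR letters, as did the windows of all 4 genes that rose and 10 of 20 of the genes not called. The 130 bases before the start are shown as examples for 1 gene that rose, for 2 that fell and for 2 that were not called. Capitals mark CHR and CCAAT words in either orientation, and in CDCA8 a CHR word and a reversed CCAAT box share 1 base.
CENPA, chr2:26785926-26786055, plus strand: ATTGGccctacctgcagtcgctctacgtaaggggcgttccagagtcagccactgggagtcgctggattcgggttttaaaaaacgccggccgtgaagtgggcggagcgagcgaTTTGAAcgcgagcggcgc
CDCA8, chr1:37692386-37692515, plus strand: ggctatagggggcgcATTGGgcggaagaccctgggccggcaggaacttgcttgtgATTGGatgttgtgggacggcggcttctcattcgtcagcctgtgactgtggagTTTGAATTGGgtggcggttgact
CENPF, chr1:214603065-214603194, plus strand: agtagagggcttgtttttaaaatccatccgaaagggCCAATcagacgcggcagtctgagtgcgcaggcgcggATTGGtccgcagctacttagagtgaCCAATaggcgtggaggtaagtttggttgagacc
HJURP, chr2:233854536-233854665, minus strand: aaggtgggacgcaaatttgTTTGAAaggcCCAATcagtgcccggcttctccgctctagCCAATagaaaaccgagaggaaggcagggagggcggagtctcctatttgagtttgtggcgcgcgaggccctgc
INCENP, chr11:62123881-62124010, plus strand: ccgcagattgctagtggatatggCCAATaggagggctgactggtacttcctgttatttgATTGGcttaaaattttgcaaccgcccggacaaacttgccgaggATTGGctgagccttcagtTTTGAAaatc
CENPA, which rose, has the word TTTGAA 18 bases before the start and CDCA8, which fell, has it 23 bases before. CENPF, which fell, has 3 CCAAT words in this stretch and its CHR word lies past the start. HJURP and INCENP, which were not called, hold both words. These matches are descriptions of letters and no site was tested.

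Centromeric chromatin held genes that moved in both directions. CENPA, the centromeric histone H3 variant itself, had 651 and 613 normalized counts in the PANC-1 libraries and 866 and 925 in the PZT-2 libraries. Both PZT-2 libraries were above both PANC-1 libraries, and the means were 632 ± 26.8 in PANC-1 and 896 ± 42.3 in PZT-2 (SD, n = 2 libraries each), a log2 fold change of 0.51 ± 0.076 (SE, adjusted p = 0.00457). The call of CENPA held in 15 of 15 alternatives of the processing. OIP5, also known as MIS18 beta, a subunit of the complex that primes centromeres for new CENP-A, had 450.2 and 474 in the PANC-1 libraries and 612 and 652 in the PZT-2 libraries, again without overlap, and a log2 fold change of 0.45 ± 0.081 (SE, adjusted p = 0.00860). CENPB, which binds the CENP-B box of alpha satellite DNA, had 5015 and 4940.4 in the PANC-1 libraries and 4310.1 and 4356 in the PZT-2 libraries. That is a small difference between tight pairs, with a log2 fold change of -0.20 ± 0.049 (SE, adjusted p = 0.0258), and its call held in 9 of 15 alternatives with adjusted p from 0.00555 to 0.171. HJURP, the chaperone that deposits CENP-A, had 2325 and 2607 in the PANC-1 libraries and 2279.9 and 2308 in the PZT-2 libraries. Its means were 2466 ± 199 in PANC-1 and 2294 ± 19.6 in PZT-2 (SD, n = 2 libraries each) and its log2 fold change was -0.11 ± 0.071 (SE, adjusted p = 0.319), so that CENPA and its chaperone were not called together. Both values of PZT-2 were lower, but PANC-1 replicate 1 was close to them, and without that library HJURP passed the threshold (adjusted p = 0.0303, in a range of 0.0303 to 0.773 over the alternatives).

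The inner kinetochore, or constitutive centromere-associated network, had 13 genes, of which 4 were lower and 1 was higher, with a median log2 fold change of -0.24. Without CENPC, which passed the filter through PANC-1 alone, 3 of 12 were lower and the median was -0.19. CENPU, of the CENP-O, P, Q, R and U subcomplex that recruits Polo-like kinase 1, had 152 and 163 normalized counts in the PANC-1 libraries and 81.5 and 63.3 in the PZT-2 libraries. Its mean was 2.17 times lower in PZT-2, with a log2 fold change of -1.12 ± 0.17 (SE, adjusted p = 0.00498). CENPO, a partner of CENPU in that subcomplex, changed in the opposite direction, with 1228 and 1239.9 in the PANC-1 libraries and 1742 and 1675 in the PZT-2 libraries and a log2 fold change of 0.47 ± 0.060 (SE, adjusted p = 0.00260). Its call held in 15 of 15 alternatives. CENPQ of the same subcomplex had 25.9 and 28.0 in the PANC-1 libraries and 40.3 and 56.4 in the PZT-2 libraries, higher in both PZT-2 libraries, and its log2 fold change of 0.84 with an adjusted p of 0.0777 did not pass the threshold at these low counts. CENPP, the fourth of them among the 40 genes, had a log2 fold change of -0.11 with an adjusted p of 0.688.

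CENPT is the histone-fold protein that links centromeric DNA to the NDC80 complex, and it had 489.6 and 509.7 normalized counts in the PANC-1 libraries and 406 and 382 in the PZT-2 libraries. The means were 499.6 ± 14.2 in PANC-1 and 394 ± 17.0 in PZT-2 (SD, n = 2 libraries each), and the log2 fold change was -0.34 ± 0.084 (SE, adjusted p = 0.0254). This call held in 8 of 15 alternatives, with adjusted p from 0.0185 to 0.143. CENPW, its histone-fold partner, had 447 and 515 in the PANC-1 libraries and 442 and 431 in the PZT-2 libraries and a log2 fold change of -0.14 with an adjusted p of 0.325. CENPI, of the CENP-H, I, K and M subcomplex, had 509.8 and 651 in the PANC-1 libraries and 395 and 443 in the PZT-2 libraries, a log2 fold change of -0.48 ± 0.13 (SE, adjusted p = 0.0399), and its call held in 8 of 15 alternatives, with adjusted p from 0.00118 to 0.171. The other genes of that subcomplex were not called. CENPH had a log2 fold change of -0.056 with an adjusted p of 0.713, CENPK of 0.076 with an adjusted p of 0.736 and CENPM of -0.36 with an adjusted p of 0.0578. CENPL and CENPN, which together contact the CENP-A nucleosome, both had lower values in PZT-2 without overlap of the libraries, but their log2 fold changes of -0.30 with an adjusted p of 0.0564 and -0.24 with an adjusted p of 0.0794 did not pass.

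CENPC, which bridges the CENP-A nucleosome to the outer kinetochore, can be described for 1 transcript only, NM_001812. It had 38 and 80 counts in the PANC-1 libraries and 1 count in each PZT-2 library. The ratio of PZT-2 over PANC-1, corrected for library size, was 0.0169, with an exact 95% interval of 0.00202 to 0.0623 that covers counting error only. The fitted log2 fold change of -5.69 ± 0.58 (SE, adjusted p = 0.00120) rests on these low counts and depends on how the fit treats them, since it was -1.01 on the log2(TPM + 1) scale. Per-library values of a further transcript of CENPC, which passed the filter of the authors, were not analysed here, so these counts are not the total of the gene.

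The outer kinetochore had 11 genes, of which 3 were lower and none was higher. These 3 were also the only ones of the 11 with an unadjusted p under 0.05 by edgeR, which adds nothing to their calls. Over all genes, 6132 of 15101 had such a p. DESeq2 called none of the 11 higher. CENPF, a large protein of the fibrous corona that binds microtubules and dynein regulators and accumulates in G2, had 1815 and 2058 normalized counts in the PANC-1 libraries and 1413 and 1192 in the PZT-2 libraries. The PZT-2 libraries lay below those of PANC-1, and the means were 1937 ± 171 in PANC-1 and 1303 ± 156 in PZT-2 (SD, n = 2 libraries each), a log2 fold change of -0.57 ± 0.10 (SE, adjusted p = 0.00824). This call held in 14 of 15 alternatives, with adjusted p from 2.47e-05 to 0.0553. CENPE, the kinesin that carries chromosomes along microtubules to the spindle equator, had 268 and 309 in the PANC-1 libraries and 207 and 170.1 in the PZT-2 libraries and a log2 fold change of -0.62 ± 0.14 (SE, adjusted p = 0.0199), a call that held in 12 of 15 alternatives. PMF1, a subunit of the MIS12 complex, had 697 and 681 in the PANC-1 libraries and 460.0 and 521 in the PZT-2 libraries and a log2 fold change of -0.49 ± 0.087 (SE, adjusted p = 0.00843). PMF1 shares 49.2% of its exon bases with the readthrough transcript PMF1-BGLAP, so the split of reads between them is uncertain. As estimated, the readthrough had means of 47.5 and 46.0 normalized counts in PANC-1 and PZT-2, values that come from the same split.

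The core of the outer layer did not pass the threshold. NDC80, which makes the main contact with microtubules, had 346 and 433 against 484 and 468 normalized counts in PANC-1 and PZT-2. Its log2 fold change was 0.28 with an adjusted p of 0.128. With 1 library left out, the log2 fold change of NDC80 ranged from 0.13 to 0.45. NUF2, its partner in a coiled coil, had 139.6 and 249 against 158 and 135, and PANC-1 replicate 1 lay between the PZT-2 libraries while PANC-1 replicate 2 was above them. Its log2 fold change was -0.42 with an adjusted p of 0.295 and turned to 0.064 without PANC-1 replicate 2. SPC24 and SPC25, the end of the complex that faces the centromere, had values of -0.045 with an adjusted p of 0.727 and -0.10 with an adjusted p of 0.621 on the log2 scale. Of the MIS12 complex, MIS12 had a log2 fold change of -0.14 with an adjusted p of 0.505, DSN1 of 0.094 with an adjusted p of 0.609 and NSL1 of 0.16 with an adjusted p of 0.312. ZWINT, which helps to place the RZZ complex at kinetochores, had 1476 and 1552 against 1487 and 1464, overlapping between the lines.

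In the spindle checkpoint, 1 of 6 genes was lower and 1 was higher. MAD2L1, the checkpoint protein that binds and holds back CDC20, had 384 and 473 normalized counts in the PANC-1 libraries and 539 and 642 in the PZT-2 libraries and a log2 fold change of 0.46 ± 0.13 (SE, adjusted p = 0.0439). Its call was near the threshold and held in 7 of 15 alternatives, with adjusted p from 0.00479 to 0.214. TTK, the kinase MPS1 that starts checkpoint signalling, had 288 and 288 in the PANC-1 libraries and 215 and 226 in the PZT-2 libraries and a log2 fold change of -0.38 ± 0.10 (SE, adjusted p = 0.0317). It held in 7 of 15 alternatives, with adjusted p from 0.0299 to 0.177. MAD1L1, which brings MAD2 to kinetochores, had 1071 and 1059 against 994 and 969.9 and a log2 fold change of -0.12 with an adjusted p of 0.212. BUB1, BUB1B and BUB3, the kinase, pseudokinase and adaptor of the checkpoint, overlapped between the lines and had log2 fold changes of -0.044 with an adjusted p of 0.737, 0.16 with an adjusted p of 0.320 and -0.034 with an adjusted p of 0.727.

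Among the 4 genes of the chromosomal passenger complex and AURKA all values were negative, and 2 passed the threshold. BIRC5, which encodes survivin and reads a phosphorylated histone H3 at centromeres, had 4820.4 and 4945 normalized counts in the PANC-1 libraries and 3664 and 3869 in the PZT-2 libraries. Its log2 fold change was -0.37 ± 0.055 (SE, adjusted p = 0.00419), and the call held in 15 of 15 alternatives. CDCA8, the subunit borealin, had 2118 and 2151 in the PANC-1 libraries and 1589 and 1642 in the PZT-2 libraries and a log2 fold change of -0.40 ± 0.057 (SE, adjusted p = 0.00390), a call that held in 14 of 15 alternatives. AURKB, the kinase of the complex, had 725 and 802 against 624 and 656 and a log2 fold change of -0.26 with an adjusted p of 0.0591, and AURKA, the spindle pole kinase, had 2452 and 2627 against 2269.8 and 2189.9 and a log2 fold change of -0.19 with an adjusted p of 0.0654. Both were just outside the threshold. INCENP, the scaffold on which the other subunits assemble, had 1130.0 and 1205 against 1165 and 1101 and a log2 fold change of -0.044 with an adjusted p of 0.678. CENPJ, which acts in centriole elongation and not at the centromere, had a log2 fold change of -0.26 with an adjusted p of 0.332.

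Counted by libraries alone, 19 of the 40 genes had both PZT-2 libraries below both PANC-1 libraries, 7 had both above and 14 overlapped. Over all genes tested, 33.0% lay below and 33.3% above in this sense. The PANC-1 libraries were not alike in these genes. PANC-1 replicate 2 was above PANC-1 replicate 1 in 34 of the 40, with a median log2 difference of 0.12, against 7562 of all 15101 genes and a median of 0.00031. This was not particular to the 40. It also held in 28 of 32 other kinetochore and spindle genes (median 0.12) and 23 of 27 DNA replication genes (median 0.10), both listed below. In PZT-2, replicate 2 was above replicate 1 in 22 of the 40, with a median of 0.03. The calls moved with the library left out. Without PANC-1 replicate 1, 16 of 39 genes were called lower and 3 higher, beside 14.7% and 16.5% of all genes in the same fit, with HJURP, CENPM, CENPN, NUF2, AURKA and AURKB added and MAD2L1 lost. Without PANC-1 replicate 2, 7 of 39 were lower and 6 higher, beside 15.1% and 16.2% of all genes, with CENPI, CENPT and TTK lost and NDC80 and BUB1B added as higher. CENPC was not tested in either case. Without PZT-2 replicate 1, 6 of 40 were lower and 4 higher, beside 7.52% and 8.20% of all genes, with CENPB, CENPI, CENPT, PMF1 and TTK lost. Without PZT-2 replicate 2, 5 of 40 were lower and 2 higher, beside 5.84% and 6.94% of all genes, with CENPB, OIP5, CENPI, CENPT, CENPE, CENPF, MAD2L1 and TTK lost. In these fits the lone library of a line was assumed to vary like the other line.

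**Figure D2:**
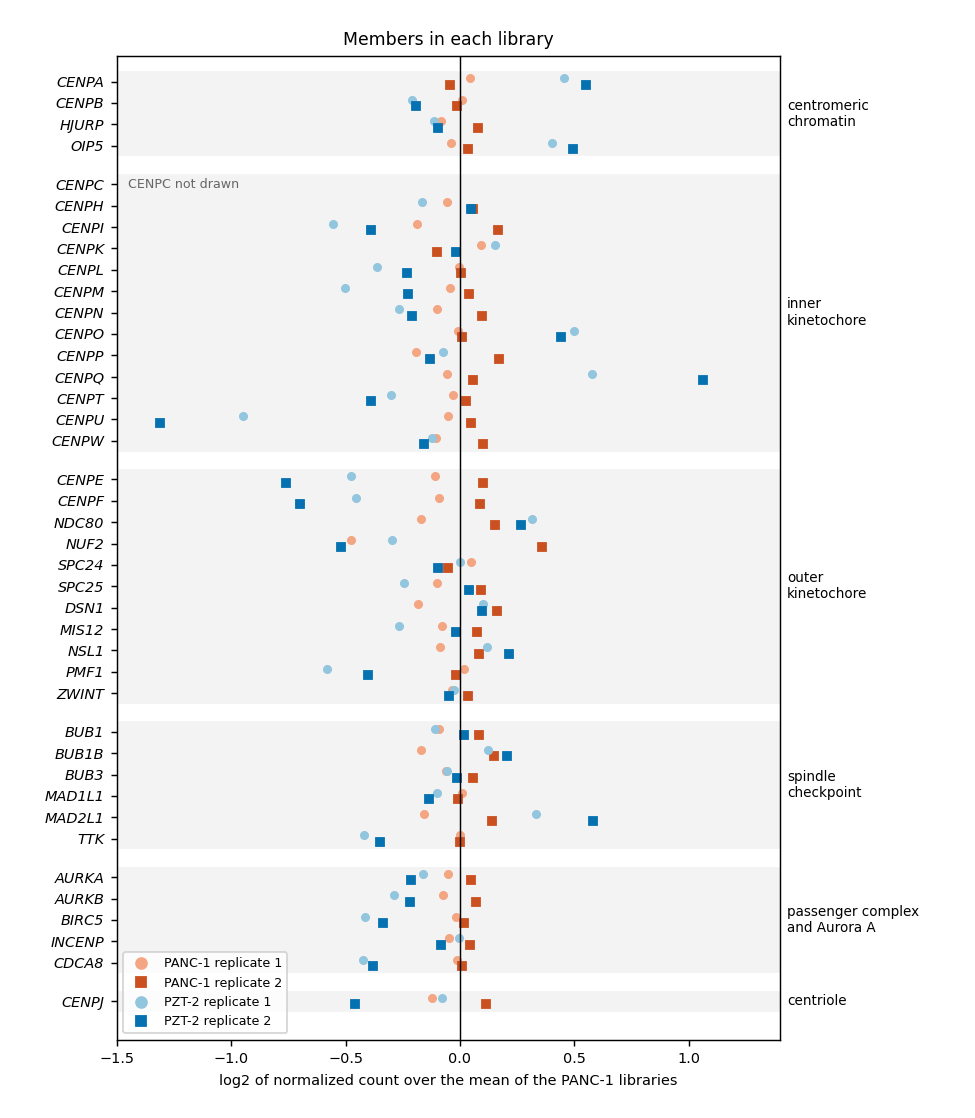
Log2 of the normalized count of each gene in each library over the mean of the PANC-1 libraries, with genes in rows by group, circles for replicate 1 and squares for replicate 2. CENPC, with 1 count in each PZT-2 library, is not drawn. The square of PANC-1 lies right of its circle for most genes, and the PZT-2 points of CENPA, OIP5, CENPO and MAD2L1 lie right of both PANC-1 points.

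The genes lie on many chromosomes, and the change of each was set beside the median of the 10 tested genes nearest to it on each side in the RefSeq annotation of GRCh38.p14. For 4 of the 40 that median was above 0.2 on the log2 scale, for 5 it was below -0.2 and for 31 it was between. CENPA and CENPO both lie on chromosome 2, which had a median of 0.12 over its other tested genes. They lie near each other there, with the bases before the start beginning at position 26785926 for CENPA and 24793295 for CENPO. The neighbours of CENPA had a median of 0.54, with 14 of 20 called higher, beside 0.51 for CENPA itself. The neighbours of CENPO had a median of 0.54, with 12 of 20 called higher, beside 0.47. Both genes changed by about as much as the genes around them. The same held for CENPI on chromosome X, with -0.48 beside -0.50 for its neighbours and -0.29 for the chromosome. CENPU on chromosome 4 fell by more than its neighbours, whose median was -0.79 with 12 of 20 called lower, while the chromosome as a whole had a median of -0.013. NDC80 on chromosome 18, not called itself, had neighbours with a median of 0.39, and 8 of 18 were called higher.

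Other called genes had neighbours whose median was nearer to 0. The neighbours of CENPF had a median of -0.0044, those of CENPE -0.11, those of BIRC5 0.026, those of CDCA8 0.085, those of CENPT 0.023, those of PMF1 -0.096 and those of CENPB 0.12, each beside a gene that fell. MAD2L1 rose among neighbours with a median of -0.061. For OIP5 on chromosome 15, whose other genes had a median of 0.24, the neighbours had 0.16. TTK, at -0.38, had neighbours with a median of -0.25, also lower. The part of the position, or of the copy number of a region in this clone, in these changes was not tested.

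**Figure D3:**
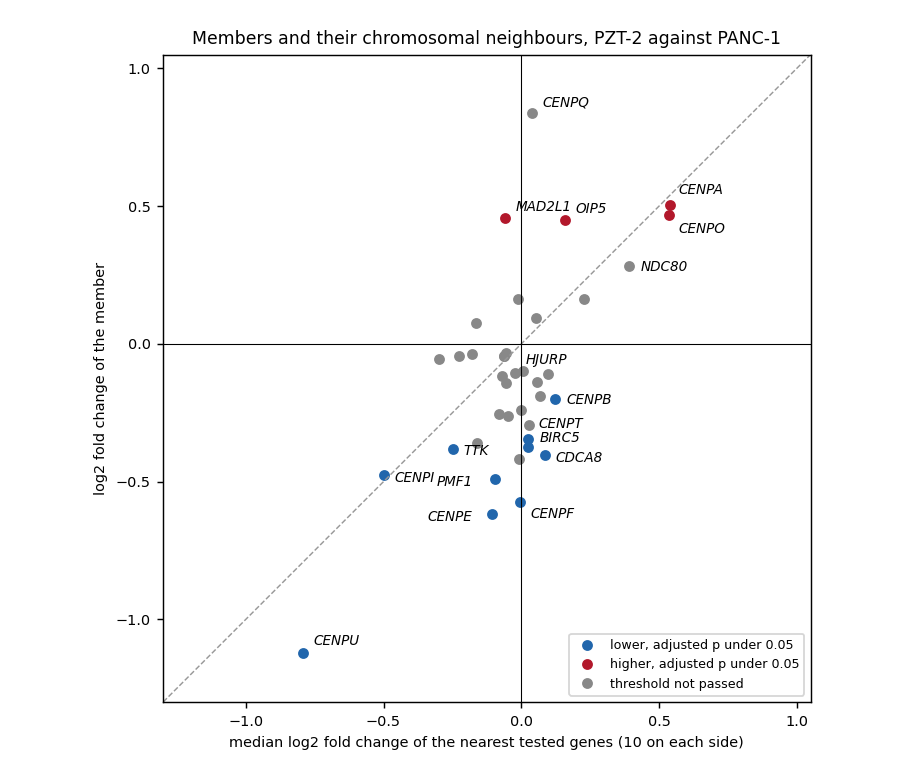
Log2 fold change of each gene in PZT-2 against PANC-1 (vertical axis) against the median log2 fold change of its nearest tested neighbours (horizontal axis), with CENPC left out and the dashed line marking equal values. CENPA, CENPO and CENPI lie close to the line, whereas CENPF, CENPE, BIRC5, CDCA8 and MAD2L1 lie farther from it, with neighbours near 0.

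Some of these genes overlap others. CENPO shares 22.9% of its exon bases with ADCY3 and 5.40% with PTRHD1, both on the opposite strand in the GENCODE 29 basic annotation. ADCY3 had a log2 fold change of 1.03 and PTRHD1 of 0.60, and both were called higher. The libraries were stranded, but whether strand was used in the pseudoalignment is not given in the sources used here, so reads of CENPO and of these genes may not be told apart where they overlap. OIP5 shares 38.0% of its exon bases with the antisense RNA OIP5-AS1, which had a log2 fold change of 0.18 and was not called. CENPU shares 17.3% with PRIMPOL, which had a log2 fold change of -0.88, and CENPT shares 2.43% with NUTF2, which had 0.04, and neither of these was called. In all, 8 of the 40 genes share exon bases with another tested gene, 6 of them on the opposite strand.

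The 40 genes had 108 transcripts with values. In 5 genes a transcript changed its share of the gene by at least 10 percentage points between the lines without overlap of the libraries. How many of all genes meet this rule was not computed, so the count cannot be read as a trait of the 40. For CENPE, transcript NM_001813 held 34.3% and 41.0% of the counts of the gene in the PANC-1 libraries and 54.8% and 53.1% in the PZT-2 libraries, so that the other transcript carried most of the fall. In CENPL, transcript NM_033319 held 76.5% and 70.8% of the counts of the gene in the PANC-1 libraries and 49.2% and 57.3% in the PZT-2 libraries. Of INCENP, NM_020238 had 51.3% and 33.0% of the counts of the gene in the PANC-1 libraries and 55.0% and 59.3% in the PZT-2 libraries, while the gene as a whole was not called. In CENPK, NM_022145 held 66.6% and 56.9% of the counts of the gene in the PANC-1 libraries and 77.3% and 79.4% in the PZT-2 libraries, and in MIS12, NM_024039 held 13.4% and 9.61% of the counts of the gene in the PANC-1 libraries and 40.6% and 15.6% in the PZT-2 libraries. The division of reads among transcripts of a gene is an estimate, and these shares were not tested. AURKA has 9 transcripts with values, and its most abundant one alone had a log2 fold change of -0.74, against -0.19 for the gene.

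Levels between genes were compared in TPM, which corrects for transcript length. BIRC5 was the highest in PANC-1, at 237 to 251 TPM in PANC-1 and 191 to 200.3 TPM in PZT-2, followed by CENPB, at 229 to 232 TPM in PANC-1 and 208 to 209 TPM in PZT-2. In PZT-2 the order of BIRC5, BUB3 and CENPB changed, and CENPB, with a mean of 208 TPM, came before BUB3 with 202 and BIRC5 with 195. In the PZT-2 libraries BIRC5 had 191 and 200.3 TPM and BUB3 200.3 and 204 TPM, so the ranges of these neighbours nearly touched, and their order was not tested. CENPA went from place 13 of 40, at 62.1 TPM, to place 7, at 91.6 TPM, OIP5 from place 15 to 9 and CDCA8 from place 6 to 8. The lowest in PANC-1 were CENPE, CENPP, CENPJ, CENPQ and the 1 transcript of CENPC, all under 5 TPM in every library, and in PZT-2 CENPU, with a mean of 3.96 TPM, came below CENPP with 4.06.

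Subunits of 1 complex did not have equal mRNA levels. In the MIS12 complex the highest subunit, PMF1, was 14.2 and 9.54 times the lowest in the PANC-1 libraries and 6.99 and 7.23 times in the PZT-2 libraries. In the passenger complex BIRC5 was 6.79 and 6.54 times INCENP in PANC-1 and the highest was 5.01 and 5.60 times the lowest in PZT-2. Within the NDC80 complex the ratio of the highest to the lowest lay between 2.52 and 4.53 over the 4 libraries. CENPA, HJURP and OIP5, which act together in CENP-A loading, spanned 1.86 and 1.96 times in PANC-1, with HJURP highest, and 1.34 and 1.27 times in PZT-2.

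**Figure D4:**
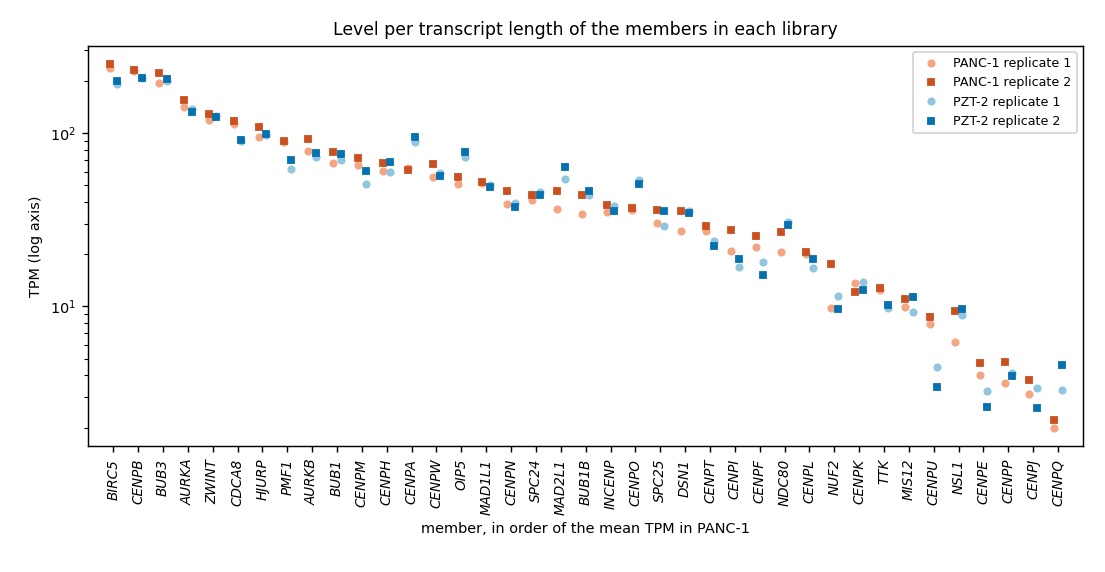
TPM of 39 of the 40 genes in each library on a log axis, in order of their mean in PANC-1, with CENPC left out. The PZT-2 points of CENPA, OIP5, CENPO and MAD2L1 stand above those of PANC-1, and the levels span from about the 244 TPM of BIRC5 to the 2.11 TPM of CENPQ in PANC-1.

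Another 32 genes that act with these at kinetochores and spindles were set beside them. Of these, 7 were lower (21.9%) and 1 was higher (3.13%), with a median log2 fold change of -0.12. Over all genes tested the shares were 13.7% and 14.7%. SPDL1, which recruits dynein to kinetochores, had 872 and 1041 normalized counts in the PANC-1 libraries and 510.3 and 511 in the PZT-2 libraries and a log2 fold change of -0.91 ± 0.10 (SE, adjusted p = 0.00163). KNTC1, the ROD subunit of the RZZ complex that binds SPDL1, had 721 and 921 in the PANC-1 libraries and 573 and 568 in the PZT-2 libraries and a log2 fold change of -0.53 ± 0.12 (SE, adjusted p = 0.0202). SGO2, a protector of centromeric cohesion, had 279 and 305 in the PANC-1 libraries and 209 and 214 in the PZT-2 libraries and a log2 fold change of -0.47 ± 0.11 (SE, adjusted p = 0.0194). CDC20, the activator of the anaphase-promoting complex that MAD2 holds back, also fell, with a log2 fold change of -0.40 with an adjusted p of 0.00246, as did TPX2, the activator of Aurora A, at -0.37 with an adjusted p of 0.00293, and BOD1 and DLGAP5. The gene that rose was CLASP2, a protein of microtubule plus ends on chromosome 3, with 537 and 579 in the PANC-1 libraries and 754 and 731 in the PZT-2 libraries and a log2 fold change of 0.41 ± 0.077 (SE, adjusted p = 0.00996), where the median over the 833 tested genes of that chromosome was 0.43. PLK1, KNL1 and the MIS18 subunit MIS18A were not called, with log2 fold changes of -0.080, -0.35 and 0.053.

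DNA replication genes, which are transcribed mainly before and in S phase, were listed for comparison. Of 27, 4 were lower and 4 were higher (14.8% each), with a median log2 fold change of 0.060. These shares were close to the 13.7% lower and 14.7% higher of all genes tested. MCM2, MCM4, CDC6 and RFC4 rose and MCM5, MCM7, POLA1 and RPA3 fell. MCM2, at 0.33, and RFC4, at 0.37, lie on chromosome 3 with its median of 0.43, and POLA1, at -0.68, on chromosome X with a median of -0.29. The difference between this list and the 40 genes was not tested.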

How the data were processed

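RNA-seq of 2 PANC-1 and 2 PZT-2 libraries was used. The submitters' processing notes name Trim Galore 0.4.1, kallisto 0.43.0, sleuth 0.29.0 and the build hg19. The deposited estimated counts per RefSeq transcript were made by the authors with kallisto and appear to carry 1 sleuth size factor per library, undone here. Each factor was estimated from the counts (1.16, 0.935, 1.03 and 1.01). It was the divisor that made the most values from 0.5 to 30 in genes with 1 transcript whole to within 0.01. With it 43.4% to 44.6% of them were whole, against 0.817% to 2.58% as deposited. This share was maximised by the choice of factor, so it is no separate check. The plan had taken the counts as deposited. The authors' comparison table holds test statistics and effects of sleuth, which were not used, and only its symbols were taken. Of 31077 transcripts, 27049 had a symbol, 3925 were named through RefSeq GRCh38.p14 and 103 (0.0466% of counts) stayed unnamed and out of the tests. Counts were rounded, summed to 15221 genes and tested in R 4.3.3 with edgeR 4.0.16 (TMM, quasi-likelihood, no covariates) where at least 5 counts were in at least 2 libraries, with Benjamini-Hochberg adjustment over all 15101 genes and a threshold of 0.05. TPM was computed from these counts and the deposited effective lengths. With 2 against 2 libraries no exact permutation test can pass, so none was made. The main fit was also run on simulated counts, in which far fewer genes changed than were called here. That run cannot give the error rate of these calls. Alternatives were RLE factors, DESeq2 1.42.0, 2 filters, limma 3.58.1 on log2(TPM + 1) and log2(TPM + 0.1), a replicate block, each library left out, the most abundant transcript alone and the deposited counts. Added after the values were seen were transcripts with a symbol only and the version 4 dispersion estimate of edgeR. Full values went to CENPA, HJURP, CENPF and CENPT and, in each group, to the called genes with a mean of at least 100 normalized counts and the largest changes (at most 3 lower and 2 higher). CENPC and the genes in the paragraphs on overlaps and transcripts were named after their values were seen. The genes and lists were chosen with earlier results of these data known.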

Additional observations from a re-analysis of the deposited data

How the results depend on the processing

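The 15 alternatives gave 597 values for the 40 genes, of which 517 kept their direction and their side of the threshold, 44 of called genes kept the direction and lost the call, 16 gained one and 20 of genes not called changed sign. Of the 15 called genes, CENPA, CENPO and BIRC5 were called in all 15 alternatives. CENPC was called in the 12 that tested it, which is no sign of stability, since it passed the filter through PANC-1 alone and the others dropped it. No called gene changed direction. The count over all genes was 4290, and it was 2132 with the most abundant transcript alone and from 1896 to 4644 with 1 library left out, lowest when PZT-2 replicate 2 was left out (2332 for PZT-2 replicate 1). Genes of the 40 called lower were 6 with limma on log2(TPM + 1), 6 on log2(TPM + 0.1) and 7 with the most abundant transcript alone, and from 5 to 16 with 1 library left out. Those called higher were from 2 to 6 with 1 library left out. Over all genes tested, 9.58% were called lower on log2(TPM + 1), 9.28% on log2(TPM + 0.1) and 6.61% with the most abundant transcript alone. The main fit called 13.7% of all genes and 27.5% of the 40 lower, so the share fell over all genes as well. The median over the 40 was -0.053 and -0.054 on the TPM scales, and from -0.20 to -0.041 with 1 library left out. On log2(TPM + 1) and log2(TPM + 0.1) the log2 fold changes were 0.071 and 0.072 for SPC24, 0.018 and 0.018 for ZWINT, 0.013 and 0.014 for BUB1 and 0.013 and 0.013 for INCENP, and with the most abundant transcript alone 0.076 for BUB3. With 1 library left out they ranged from -0.067 to 0.27 for DSN1, from -0.028 to 0.17 for CENPK, from -0.28 to 0.081 for CENPP, from -0.76 to 0.064 for NUF2, from -0.13 to 0.040 for BUB1, from -0.096 to 0.018 for BUB3, from -0.17 to 0.045 for CENPH, from -0.25 to 0.036 for SPC25 and from -0.10 to 0.0034 for SPC24. The replicate number as a block gave 3770 calls over all genes, with 11.8% of those tested lower and 13.2% higher. Of the 40, it called 10 lower and 4 higher, CENPB and TTK being lost and CENPM added. Over all genes, libraries of the same number did not deviate together (correlation -0.0201). This value cannot tell whether they were grown or prepared together, which the labels do not say. Low counts limit CENPC and CENPQ, whose SE was 0.58 and 0.29 on the log2 scale.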
